A study of Mus musculus with 6 samples.

Results

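The genes described here are 49 interferon-stimulated genes and nucleic acid sensors among the 32371 genes of the count table. They were chosen by name as genes that interferons are known to induce. The choice was made with earlier results of these data known, so the counts of these genes beside those of all genes are a description. The table lists genes by Ensembl identifiers, such as ENSMUSG00000032661 for Oas3 and ENSMUSG00000025498 for Irf7. All 49 were found by their mouse symbols, and all 49 had enough counts to be tested. They were measured by RNA-Seq in cells sorted from the retinas of adult C57BL/6J mice of both sexes. The comparison asked how the transcriptome of injured retinal ganglion cells (RGCs) changed when Ezh2-Y726D was overexpressed. Ezh2 is the histone methyltransferase of the Polycomb repressive complex PRC2, and Y726D is a catalytically dead form of it. The GFP group (n = 3 libraries) received AAV2-GFP in the vitreous body, and the Ezh2-Y726D group (n = 3 libraries) received AAV2-Ezh2-Y726D. In both groups the optic nerve was crushed 2 weeks later and viable cells that carried CD90.2 were collected by FACS 3 days after the optic nerve crush (ONC). Injection of AAV2, injury and sorting were thus common to all libraries, and the gene that the virus carried differed. No uninjured or uninjected retina was part of the comparison. The promoter that drives the vectors and the number of mice behind each library are not given in the sources used here, so the P values measure the spread between these libraries.

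Interferons are secreted proteins, and cells release those of type I when they sense foreign or misplaced nucleic acid. Type I interferons bind the receptor made of IFNAR1 and IFNAR2, the kinases JAK1 and TYK2 are then activated, and the complex ISGF3, which contains STAT2 and IRF9, forms. ISGF3 binds the interferon-stimulated response element (ISRE) in the promoters of interferon-stimulated genes. Interferon gamma acts through its own receptor and through gamma-activated sites (GAS) in promoters. The induced genes code for sensors of RNA and DNA, for enzymes and GTPases that restrict viruses and intracellular microbes, and for factors that amplify or end the response. In the retina microglia, infiltrating leukocytes, Müller glia and neurons can all respond to interferons.

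Ezh2 itself, which checks the labels, was at 22.7, 23.9 and 26.4 CPM (the count relative to the TMM-scaled library size) with GFP and 65.2, 65.6 and 65.2 CPM with Ezh2-Y726D (log2 fold change 1.46, adjusted P = 3.01e-16). Vector and endogenous transcripts cannot be told apart in these counts. The libraries held 9333244 to 23782520 counts each. The ribosomal RNA gene CT010467.1 accounted for 50.9% of all counts in GFP replicate 2, 52.2% in GFP replicate 3 and 2.55% to 16.1% in the other 4 libraries, which left 4460732 to 22024582 counts outside it. The libraries also held transcripts of cells other than RGCs. Summed markers of RGCs came to 472 to 483 CPM with GFP and 450.02 to 486 CPM with Ezh2-Y726D, whereas 5 rod genes summed to 5289 to 5428 CPM with GFP and 5819.8 to 6000.1 CPM with Ezh2-Y726D, and markers of microglia and T cells were also counted. In such bulk samples fewer cells of a type and less RNA per cell cannot be told apart.

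RefSeq promoter windows (250 bases before to 50 after a gene's start, GRCm38.p6) were matched by symbol for 38 of the 49 genes. The ISRE was searched as the letters GAAANNGAAA on both strands, and 20 of the 38 genes (52.6%) held at least 1 match, beside 3.99% of the 27025 genes in the RefSeq table. The GAS letters TTCNNNGAA, which read the same on both strands, were in 9 of the 38 genes (23.7%) and in 9.55% of all genes. A match describes the sequence and does not show that the site is bound. The windows of 4 genes are printed from 5′ to 3′ on the gene's strand, with the ISRE letters in capitals: the window of Isg15 (GRCm38.p6 chr4:156200769-156201068, minus strand), which held 3 overlapping matches, that of Ifit1 (chr19:34640639-34640938, plus strand), the classical reporter of type I interferon, that of Oas3 (chr5:120777610-120777909, minus strand), the gene with the lowest log2 fold change among the 49, and that of Gbp7 (chr3:142530086-142530385, plus strand), one of the genes with the smallest difference.
Isg15: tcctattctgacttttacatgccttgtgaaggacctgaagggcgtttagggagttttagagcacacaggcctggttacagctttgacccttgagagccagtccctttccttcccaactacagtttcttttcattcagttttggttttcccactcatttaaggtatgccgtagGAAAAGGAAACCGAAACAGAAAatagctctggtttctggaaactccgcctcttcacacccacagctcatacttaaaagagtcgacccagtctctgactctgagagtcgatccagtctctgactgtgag
Ifit1: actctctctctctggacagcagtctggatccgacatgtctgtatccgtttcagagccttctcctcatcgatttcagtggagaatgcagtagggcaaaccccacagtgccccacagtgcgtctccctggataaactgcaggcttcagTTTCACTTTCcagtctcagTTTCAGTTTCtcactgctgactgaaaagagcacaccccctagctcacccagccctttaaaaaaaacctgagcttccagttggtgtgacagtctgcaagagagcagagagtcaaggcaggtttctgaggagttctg
Oas3: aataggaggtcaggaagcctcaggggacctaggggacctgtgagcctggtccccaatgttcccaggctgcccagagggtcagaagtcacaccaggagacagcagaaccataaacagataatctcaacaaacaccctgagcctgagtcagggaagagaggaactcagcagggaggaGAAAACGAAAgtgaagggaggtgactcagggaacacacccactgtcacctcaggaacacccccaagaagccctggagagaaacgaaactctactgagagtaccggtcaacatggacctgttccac
Gbp7: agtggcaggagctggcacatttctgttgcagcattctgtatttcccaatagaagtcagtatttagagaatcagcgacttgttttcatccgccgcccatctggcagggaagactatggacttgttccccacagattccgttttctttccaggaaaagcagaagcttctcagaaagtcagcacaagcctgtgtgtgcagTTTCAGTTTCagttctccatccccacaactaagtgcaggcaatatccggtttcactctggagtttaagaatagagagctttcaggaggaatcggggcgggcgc
The matches began 78 bases before the start in Isg15, 104 and 85 bases before it in Ifit1, 75 in Oas3 and 53 in Gbp7. Of the 38 genes, 9 held 2 or more matches within a single window. The presence of the letters did not sort the genes by the size of their difference. The median log2 fold change was -0.55 in the 20 genes with the ISRE letters, -0.55 in the 18 without them, and -0.86 in the 11 with no matched window.

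With Ezh2-Y726D the interferon-stimulated genes were lower as a group (see the plot of all 49 genes by library). With TMM scaling all 49 were lower at an adjusted P under 0.05 and 0 were higher. Among all 18138 genes tested 13.6% were lower at that threshold. Scaling by library totals alone, in which CT010467.1 enters the depth, sets the median of all genes at 0.49. With it 18 of the 49 had positive log2 fold changes and 0 passed the test. With CT010467.1 left out of the totals 49 were lower at an adjusted P under 0.05. Under each of the 14 other settings tried, library totals included, the log2 fold change of each of the 49 genes was below the median of all genes. At the study's threshold (adjusted P under 0.05 and fold change over 1.5) 24 of the 49 genes were called lower and 0 higher, beside 5.50% of all genes called lower. The same share of all genes stands beside the calls of each role group below. Every Ezh2-Y726D library was below every GFP library for 48 of the 49 genes, which held for 18.9% of all genes. The median log2 fold change of the 49 genes was -0.58, with quartiles of -0.88 and -0.41, and that of all genes was 0.00, with quartiles of -0.15 and 0.15. All P values are adjusted by the Benjamini-Hochberg method over all genes and come from edgeR's quasi-likelihood test.

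**Figure D1:**
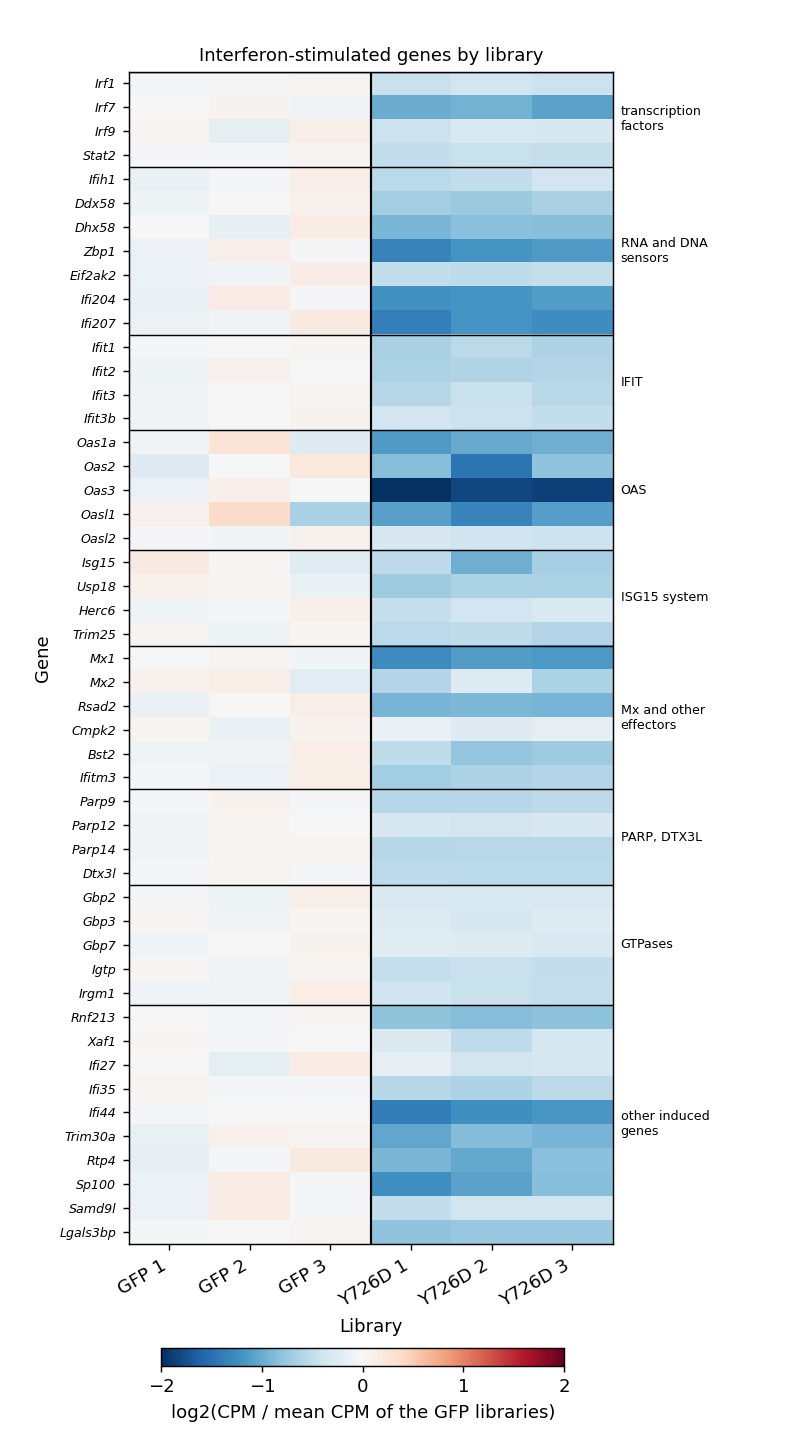
Each row is 1 of the 49 genes and each column 1 library, and the colour gives log2 of the gene's TMM-scaled CPM over its mean in the 3 GFP libraries, with genes ordered by role. The 3 Ezh2-Y726D columns are blue in nearly every row, from near 0 in Cmpk2 to below -1 in Oas3. With scaling by library totals, where the median of all genes is 0.49, 18 of the 49 differences are positive.

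Summed over the 49 genes, the level was 2815, 2854 and 2983 CPM in GFP replicates 1 to 3 and 1918, 1925 and 1924 CPM in Ezh2-Y726D replicates 1 to 3. The groups did not overlap, and the Ezh2-Y726D libraries lay closer to each other than the GFP libraries did. The same genes made up 0.384%, 0.385% and 0.403% of the counts outside CT010467.1 with GFP and 0.257%, 0.257% and 0.258% with Ezh2-Y726D. Of all counts, CT010467.1 included, they made up 0.359%, 0.189% and 0.193% with GFP and 0.251%, 0.216% and 0.239% with Ezh2-Y726D, where the groups overlapped and GFP replicates 2 and 3 had the lowest shares. An exact permutation test of 3 against 3 libraries cannot give a P below 0.1.

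**Figure D2:**
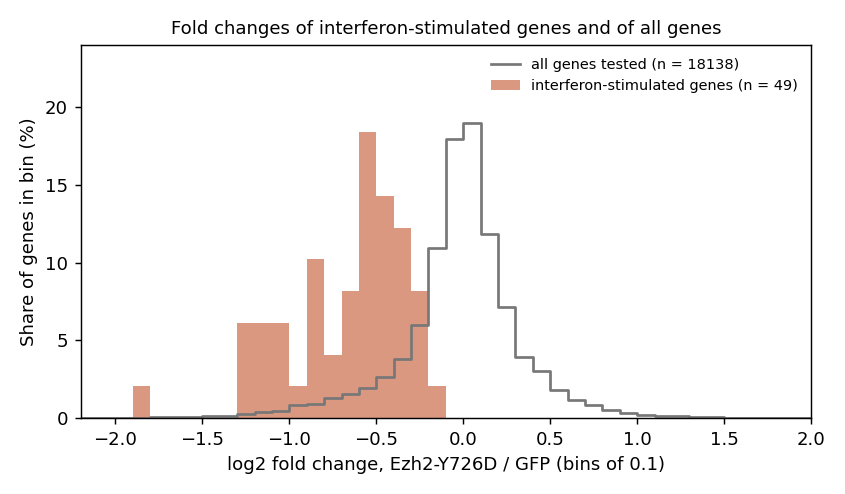
The horizontal axis gives the log2 fold change of Ezh2-Y726D over GFP with TMM scaling in bins of 0.1 and the vertical axis the percentage of genes in each bin, with bars for the 49 interferon-stimulated genes and a line for all 18138 genes tested. All bars lie to the left of 0, around a median of -0.58, whereas the line is centred at 0.00. With library totals the median of the 49 genes is -0.08 and that of all genes 0.49.

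The transcription factors of the response comprise Irf9 and Stat2, which are parts of ISGF3, Irf7, which drives and amplifies type I interferon production, and Irf1, a factor induced by interferon gamma. All 4 fell with TMM scaling, although Irf1, Irf9 and Stat2 had positive values with library totals, and 1 of the 4, Irf7, was called lower. Irf7 was at 75.1, 78.7 and 71.98 CPM in GFP replicates 1 to 3 and 37.9, 39.3 and 35.8 CPM in Ezh2-Y726D replicates 1 to 3. Its GFP and Ezh2-Y726D libraries were far apart, with a level of 49.8% of that with GFP (log2 fold change -1.005, standard error 0.054, adjusted P = 4.58e-14). Irf1 was at 108, 108 and 114 CPM with GFP and 80.3, 85.6 and 81.4 CPM with Ezh2-Y726D (log2 fold change -0.41, adjusted P = 2.72e-08). Stat2 was at 86.6, 87.8 and 92.7 CPM with GFP and 63.3, 65.4 and 64.02 CPM with Ezh2-Y726D (log2 fold change -0.46, adjusted P = 7.74e-09). Both sets of values were separate between groups, by less than the 1.5-fold threshold. Irf9 averaged 83.7 ± 8.59 CPM with GFP and 65.8 ± 2.88 CPM with Ezh2-Y726D (log2 fold change -0.35, adjusted P = 1.19e-05), where ±, here as elsewhere, is the SD over the 3 libraries of a group. Irf7 and Irf9 had log2 fold changes of unlike size, and this pair was chosen after the values were seen. The ratio of Irf7 to Irf9 counts within a library, which needs no scaling, was 0.866, 1.06 and 0.796 with GFP and 0.607, 0.580 and 0.533 with Ezh2-Y726D, with no overlap (two-sided exact permutation P = 0.1, the smallest that 3 against 3 can give).

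The sensors had a lower median, -0.86, with 5 of 7 genes called lower. All 7 fell with TMM scaling, although Ifih1 and Eif2ak2 had positive values with library totals. Among them are the RIG-I-like receptors of cytosolic RNA: Ddx58 (RIG-I), Ifih1 (MDA5) and Dhx58 (LGP2, which modulates the other two). Ddx58 was at 50.6, 54.4 and 57.7 CPM in GFP replicates 1 to 3 and 33.5, 32.5 and 34.5 CPM in Ezh2-Y726D replicates 1 to 3 (log2 fold change -0.67, standard error 0.059, adjusted P = 7.85e-10). Ifih1 was at 37.5, 40.2 and 44.9 CPM with GFP and 28.3, 29.1 and 31.3 CPM with Ezh2-Y726D (log2 fold change -0.43, adjusted P = 1.01e-05). Dhx58, the least abundant of them, was at 18.5, 16.5 and 20.4 CPM with GFP and 9.77, 10.4 and 10.2 CPM with Ezh2-Y726D (log2 fold change -0.86, adjusted P = 9.202e-09). Within this family the groups were separate for each gene, and the drop of Ifih1 was under 1.5-fold while those of the other two were over it. Zbp1, a sensor of Z-form nucleic acid that can start necroptosis, was at 23.5, 27.7 and 24.9 CPM in GFP replicates 1 to 3 and 10.1, 11.1 and 11.6 CPM in Ezh2-Y726D replicates 1 to 3, which is 44.1% of the mean with GFP (log2 fold change -1.18, standard error 0.084, adjusted P = 1.02e-11). Eif2ak2 codes for PKR, the kinase that halts translation on double-stranded RNA, and averaged 35.3 ± 3.54 CPM with GFP and 25.1 ± 0.357 CPM with Ezh2-Y726D (log2 fold change -0.45, adjusted P = 4.11e-06). Ifi204 and Ifi207 belong to the PYHIN family, whose HIN domain binds DNA, and lie within 43.5 kb on chromosome 1. Ifi204 was at 16.7, 20.6 and 18.1 CPM with GFP and 8.01, 8.14 and 8.51 CPM with Ezh2-Y726D (log2 fold change -1.13, adjusted P = 2.899e-10). Ifi207 was at 7.86, 8.13 and 9.62 CPM with GFP and 3.31, 3.77 and 3.63 CPM with Ezh2-Y726D (log2 fold change -1.21, adjusted P = 3.76e-08). Both fell over 2-fold with no overlap between groups, although 20.0% of the 50-base words of Ifi204 also occur in other genes, chiefly Ifi211, so its counts are uncertain.

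The IFIT proteins bind foreign RNA by its 5′ end and block its translation. All 4 genes fell with TMM scaling within a narrow range of -0.60 to -0.41, although Ifit3b had a positive value with library totals, and only Ifit1 passed the 1.5-fold threshold. Ifit1 was at 49.6, 51.2 and 51.6 CPM in GFP replicates 1 to 3 and 32.4, 34.9 and 33.01 CPM in Ezh2-Y726D replicates 1 to 3 (log2 fold change -0.60, standard error 0.057, adjusted P = 2.92e-09). Ifit2 was at 64.2, 72.7 and 69.5 CPM with GFP and 44.5, 45.5 and 45.9 CPM with Ezh2-Y726D (log2 fold change -0.58, adjusted P = 1.84e-09). Ifit3 was at 104, 106 and 112 CPM with GFP and 72.6, 78.6 and 72.9 CPM with Ezh2-Y726D (log2 fold change -0.51, adjusted P = 1.197e-09). The groups were separate in each. Ifit1 and Ifit2 lay on either side of the 1.5-fold line (levels of 66.2% and 66.8% of GFP), so the line divides genes that differ by less than their standard errors. Ifit3b averaged 33.2 ± 1.77 CPM with GFP and 24.6 ± 1.03 CPM with Ezh2-Y726D (log2 fold change -0.41, adjusted P = 1.402e-05). Ifit3 shares 51.2% of its 50-base words with other genes, chiefly Ifit3b, and Ifit3b shares nearly as much with Ifit3, so reads can pass between these 2 copies. The 4 genes lie within 99.3 kb on chromosome 19 (GRCm38 chr19:34550694-34650009).

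The oligoadenylate synthetases (OAS) make the second messenger that activates RNase L on double-stranded RNA, and Oasl1 and Oasl2 are OAS-like genes. This family had both the lowest median of the role groups, -1.03, and a wide range. All 5 fell with TMM scaling, although Oasl2 had a positive value with library totals, and 4 of the 5 were called lower. Oas3 was at 20.7, 23.99 and 22.2 CPM in GFP replicates 1 to 3 and 5.64, 6.32 and 6.13 CPM in Ezh2-Y726D replicates 1 to 3. The gene lies on the minus strand at GRCm38 chr5:120753098-120777661. Its Ezh2-Y726D libraries were at 27.6% of the mean with GFP, the lowest share among the 49 genes (log2 fold change -1.86, standard error 0.095, adjusted P = 1.52e-14). Oas1a was at 12.7, 15.99 and 11.1 CPM with GFP and 6.05, 6.57 and 6.71 CPM with Ezh2-Y726D (log2 fold change -1.03, adjusted P = 3.03e-08). Oas2 was at 5.86, 7.09 and 8.13 CPM with GFP and 3.91, 2.55 and 4.03 CPM with Ezh2-Y726D (log2 fold change -0.88, adjusted P = 1.21e-04). Oasl1, known to repress the translation of Irf7, was at 8.24, 10.1 and 4.98 CPM with GFP and 3.65, 3.09 and 3.63 CPM with Ezh2-Y726D (log2 fold change -1.21, adjusted P = 6.37e-07). None of these 4 genes overlapped between groups, and Oas2 and Oasl1 rest on the lowest levels of the family. Of the 50-base words of Oas1a 57.6% also occur in other genes, chiefly Oas1g, so its counts are uncertain. Oasl2, the most abundant of the family per kb of exon (18.2 CPM per kb with GFP), was at 113, 112 and 123 CPM with GFP and 92.98, 87.5 and 87.2 CPM with Ezh2-Y726D (log2 fold change -0.37, adjusted P = 2.86e-07). The drop of Oasl2 was small beside that of Oas3. The Oas3 to Oasl2 ratio of counts, a pair chosen after the values were seen, was 0.183, 0.215 and 0.181 with GFP. With Ezh2-Y726D the ratio was 0.0606, 0.0723 and 0.0704 (two-sided exact permutation P = 0.1, the smallest possible).

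**Figure D3:**
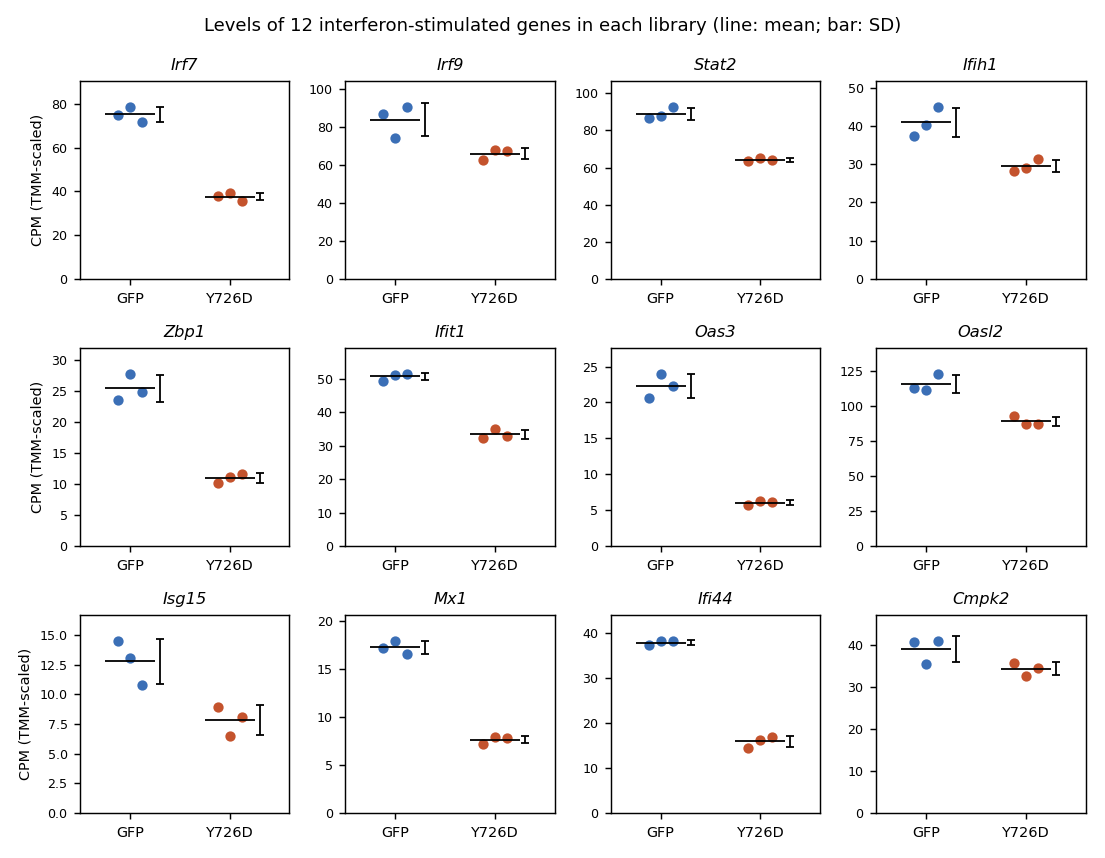
TMM-scaled CPM of 12 of the genes in each of the 3 GFP and 3 Ezh2-Y726D libraries, with 1 point per library, a line at the mean and a bar for the SD, and each vertical axis starting at 0. The groups are separate in every panel except that of Cmpk2. With library totals, where the median of all genes is 0.49, Irf9, Stat2, Ifih1, Oasl2 and Cmpk2 have positive differences.

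The ISG15 system attaches the ubiquitin-like protein ISG15 to other proteins. All 4 genes fell with TMM scaling, although Herc6 had a positive value with library totals, and Isg15 and Usp18 were called lower. Isg15, the modifier itself, was at 14.5, 13.03 and 10.8 CPM in GFP replicates 1 to 3 and 8.91, 6.47 and 8.100 CPM in Ezh2-Y726D replicates 1 to 3 (log2 fold change -0.76, standard error 0.115, adjusted P = 5.75e-06). Usp18, the protease that removes ISG15 and also restrains the type I receptor, was at 20.2, 19.5 and 17.2 CPM with GFP and 11.7, 12.3 and 12.3 CPM with Ezh2-Y726D (log2 fold change -0.69, adjusted P = 1.46e-07). Herc6, the mouse ligase for ISG15, was at 18.8, 19.7 and 21.4 CPM with GFP and 14.3, 15.3 and 16.2 CPM with Ezh2-Y726D (log2 fold change -0.35, adjusted P = 0.00113). Groups were separate for all of these, and the ligase had the smallest difference. Trim25, a ubiquitin ligase that acts on RIG-I, was at 29.9, 26.7 and 29.4 CPM with GFP and 19.7, 20.1 and 19.2 CPM with Ezh2-Y726D (log2 fold change -0.56, adjusted P = 1.598e-07), also without overlap.

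Among the Mx, membrane and nucleotide effectors 4 of 6 genes were called lower, and all 6 fell with TMM scaling, although Cmpk2 had a positive value with library totals. Mx1 codes for a dynamin-like antiviral GTPase, of which C57BL/6 mice carry a defective allele. It was at 17.2, 17.9 and 16.6 CPM in GFP replicates 1 to 3 and 7.18, 7.94 and 7.795 CPM in Ezh2-Y726D replicates 1 to 3 (log2 fold change -1.18, standard error 0.092, adjusted P = 6.51e-11). Mx2, its neighbour on chromosome 16, which GENCODE annotates as a polymorphic pseudogene, averaged 14.03 ± 1.68 CPM with GFP and 10.1 ± 1.49 CPM with Ezh2-Y726D (log2 fold change -0.53, adjusted P = 2.497e-04). The Mx1 to Mx2 ratio of counts, a pair chosen after the values were seen, was 1.16, 1.18 and 1.37 with GFP. With Ezh2-Y726D the ratio was 0.767, 0.675 and 0.861, with no overlap (two-sided exact permutation P = 0.1, the smallest possible). The ratio of Rsad2 to Cmpk2 counts did not overlap between groups either. These genes lie within 37.1 kb on chromosome 12. Rsad2 codes for viperin, which makes a chain-terminating nucleotide, and was at 24.8, 27.2 and 29.2 CPM with GFP and 14.2, 14.5 and 14.1 CPM with Ezh2-Y726D (log2 fold change -0.88, adjusted P = 4.03e-10). Cmpk2, a nucleotide kinase, was at 40.9, 35.6 and 41.1 CPM with GFP and 35.9, 32.8 and 34.6 CPM with Ezh2-Y726D (log2 fold change -0.20, adjusted P = 0.0184). Its groups overlapped, alone among the 49 genes, and its adjusted P was not under 0.05 without GFP replicate 1 (adjusted P = 0.23), GFP replicate 3 (adjusted P = 0.0569) or Ezh2-Y726D replicate 2 (adjusted P = 0.089) and with DESeq2 (adjusted P = 0.107). Bst2, the tetherin that holds budding virus at the cell surface, was at 23.2, 23.5 and 26.9 CPM with GFP and 17.3, 14.3 and 15.05 CPM with Ezh2-Y726D (log2 fold change -0.62, adjusted P = 7.41e-07). Ifitm3, which hinders the fusion of viruses with endosomal membranes, was at 59.5, 56.6 and 67.3 CPM with GFP and 37.96, 39.5 and 40.7 CPM with Ezh2-Y726D (log2 fold change -0.62, adjusted P = 2.62e-09). The groups of both were separate. Ifitm3 was the most abundant of the 49 genes per kb of exon, at 90.2 CPM per kb with GFP and 58.1 CPM per kb with Ezh2-Y726D, although just over 10% of its 50-base words also occur in other genes, chiefly Gm7676, so its counts are uncertain.

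Parp9, Parp12 and Parp14 belong to the family of ADP-ribosyltransferases. All 4 fell with TMM scaling, although Parp12 had a positive value with library totals, and 0 of the 4 reached 1.5-fold. Parp14 was at 93.03, 98.8 and 101 CPM in GFP replicates 1 to 3 and 66.1, 66.4 and 66.2 CPM in Ezh2-Y726D replicates 1 to 3 (log2 fold change -0.55, standard error 0.046, adjusted P = 3.19e-10). Dtx3l, a ubiquitin ligase that works in a complex with PARP9, was at 61.2, 64.8 and 61.7 CPM with GFP and 43.3, 43.2 and 42.9 CPM with Ezh2-Y726D (log2 fold change -0.53, adjusted P = 4.83e-09). Groups were separate for both. Parp9 averaged 54.1 ± 2.33 CPM with GFP and 36.9 ± 0.7501 CPM with Ezh2-Y726D (log2 fold change -0.54, adjusted P = 1.15e-08), and Parp12 59.2 ± 2.86 CPM with GFP and 46.8 ± 0.708 CPM with Ezh2-Y726D (log2 fold change -0.32, adjusted P = 2.804e-05). Parp14, Dtx3l and Parp9 lie within 140 kb on chromosome 16 and ranged from -0.55 to -0.53. The Parp9 to Dtx3l ratio of counts was 0.859, 0.877 and 0.858 with GFP and 0.839, 0.847 and 0.881 with Ezh2-Y726D, and the groups overlapped (two-sided exact permutation P = 0.6). The exons of Dtx3l and Parp9 overlap in part on opposite strands, so some reads may be shared if counting ignored strand.

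The guanylate-binding and immunity-related GTPases, which attack vacuoles that hold microbes and respond strongly to interferon gamma, had the smallest median difference of the role groups, -0.30. All 5 fell with TMM scaling and 0 of the 5 reached 1.5-fold. With library totals all 5 had positive values, below the median of all genes under that scaling, 0.49. Irgm1 was at 138, 138 and 158 CPM in GFP replicates 1 to 3 and 110.2, 106 and 104 CPM in Ezh2-Y726D replicates 1 to 3 (log2 fold change -0.42, standard error 0.047, adjusted P = 3.804e-08). Gbp2 was at 127, 119 and 139 CPM with GFP and 105, 104 and 104 CPM with Ezh2-Y726D (log2 fold change -0.30, adjusted P = 8.62e-06). Groups were separate in both, although the drop of Gbp2 was small. Igtp (IRGM3) averaged 115 ± 5.18 CPM with GFP and 83.1 ± 1.296 CPM with Ezh2-Y726D (log2 fold change -0.48, adjusted P = 1.49e-09). Gbp3 averaged 76.2 ± 2.904 CPM with GFP and 62.99 ± 1.63 CPM with Ezh2-Y726D (log2 fold change -0.28, adjusted P = 5.25e-05). Gbp7 averaged 76.8 ± 4.095 CPM with GFP and 63.9 ± 1.24 CPM with Ezh2-Y726D (log2 fold change -0.25, adjusted P = 3.099e-04). Gbp7, Gbp3 and Gbp2 lie within 108 kb on chromosome 3 and kept to a range of -0.30 to -0.25. Of the 50-base words of Igtp 11.8% recur in other genes, chiefly Irgm2, and of those of Gbp7 12.7%.

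The other 10 induced genes had a median of -0.80 with 7 called lower. All 10 fell with TMM scaling, although Xaf1, Ifi27 and Samd9l had positive values with library totals. Rnf213, a giant ubiquitin ligase, had the highest CPM of the 49 genes, at 427, 419 and 435 CPM in GFP replicates 1 to 3 and 245, 236 and 241 CPM in Ezh2-Y726D replicates 1 to 3 (log2 fold change -0.83, standard error 0.039, adjusted P = 3.27e-15). Lgals3bp, a secreted glycoprotein that binds galectins, was at 139.8, 143 and 149 CPM with GFP and 82.8, 85.1 and 84.7 CPM with Ezh2-Y726D (log2 fold change -0.77, adjusted P = 5.63e-14). Ifi44 was at 37.3, 38.3 and 38.1 CPM with GFP and 14.5, 16.3 and 16.8 CPM with Ezh2-Y726D (log2 fold change -1.25, adjusted P = 6.26e-14). Each of these was apart in the 2 groups, and Ifi44 was at 42.1% of the level with GFP. Trim30a, a TRIM protein that restrains inflammatory signalling, was at 54.8, 64.5 and 63.4 CPM with GFP and 29.8, 33.3 and 32.1 CPM with Ezh2-Y726D (log2 fold change -0.91, adjusted P = 1.02e-11). Sp100, a component of nuclear bodies, was at 21.2, 25.4 and 22.4 CPM with GFP and 9.77, 10.98 and 12.7 CPM with Ezh2-Y726D (log2 fold change -1.001, adjusted P = 2.11e-09). Rtp4 was at 18.98, 20.6 and 24.2 CPM with GFP and 11.3, 10.5 and 11.9 CPM with Ezh2-Y726D (log2 fold change -0.86, adjusted P = 1.48e-08). No Ezh2-Y726D library reached the lowest GFP library for these genes. Ifi35 was at 26.2, 24.6 and 24.7 CPM with GFP and 16.99, 16.4 and 17.5 CPM with Ezh2-Y726D (log2 fold change -0.59, adjusted P = 1.66e-07), just past the 1.5-fold line. The exons of Rtp4, Ifi35, Gbp7 and Herc6 overlap those of other annotated genes by over 10%, so their counts are uncertain. Xaf1, which binds the apoptosis inhibitor XIAP, averaged 22.3 ± 0.542 CPM with GFP and 17.1 ± 1.29 CPM with Ezh2-Y726D (log2 fold change -0.38, adjusted P = 2.49e-04). Samd9l averaged 37.1 ± 3.55 CPM with GFP and 27.96 ± 1.37 CPM with Ezh2-Y726D (log2 fold change -0.38, adjusted P = 6.94e-05). Ifi27 averaged 21.5 ± 2.32 CPM with GFP and 17.5 ± 1.22 CPM with Ezh2-Y726D (log2 fold change -0.29, adjusted P = 0.006303), and its adjusted P was not under 0.05 without GFP replicate 1 (adjusted P = 0.0763) and with DESeq2 (adjusted P = 0.0565).

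**Figure D4:**
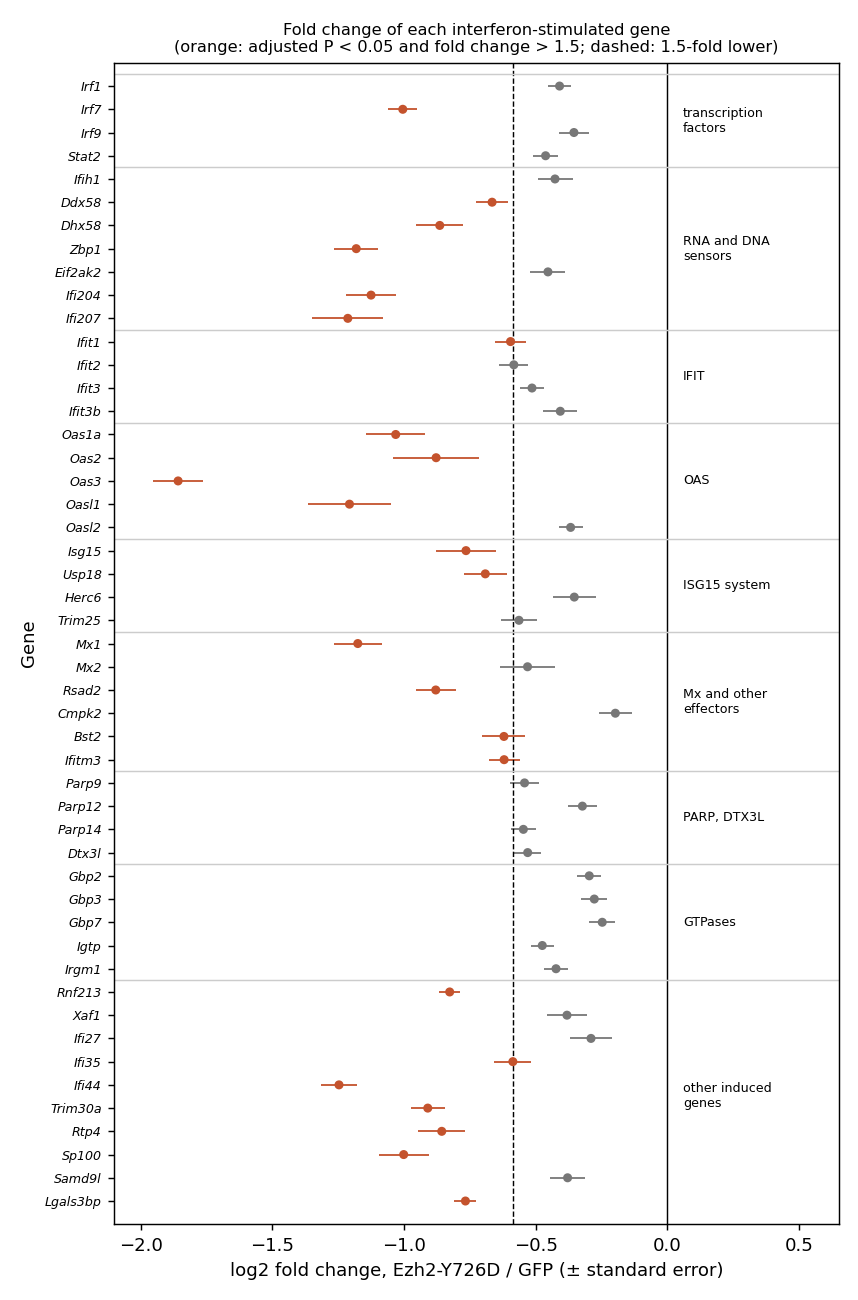
Log2 fold change of Ezh2-Y726D over GFP with TMM scaling (points) and its standard error (bars) for each of the 49 genes, grouped by role, with a dashed line at 1.5-fold lower and orange for the 24 genes called lower. The values run from -1.86 in Oas3 to -0.20 in Cmpk2, and the PARP and GTPase groups lie wholly to the right of the dashed line. With library totals, where the median of all genes is 0.49, 18 of the 49 values are positive.

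Leaving out 1 library moved a few genes across the 1.5-fold line without changing their adjusted P from under 0.05. Ifit1 lost its call without Ezh2-Y726D replicate 1, at -0.57. Bst2 lost it without Ezh2-Y726D replicate 2 and without GFP replicate 3, at -0.57 and -0.58, and Ifitm3 without GFP replicate 3, at -0.57. Ifi35 lost it without GFP replicate 1 and without Ezh2-Y726D replicate 2, at -0.54 and -0.57. Ifit2, Parp14, Trim25 and Mx2 gained a call in at least 1 such fit. The other 20 of the 24 genes were called whichever library was left out.

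Within the 49 genes the size of the difference varied with the level of the gene. Of the 22 genes with a mean of 50 CPM or more with GFP 7 were called lower, with a median log2 fold change of -0.52. Of the 17 genes under 25 CPM 13 were called lower, with a median of -0.86. Among all genes tested 5.50% were called lower, and whether that share varies with level was not tested. Across the 49 genes Spearman's rho between the log2 fold change and the GFP mean was 0.455 in CPM and 0.363 in CPM per kb, given as a description since the genes share libraries and the GFP values enter both measures. The 2 scales also share the depth of the same libraries. In all, 23 of the 49 genes lie in 9 clusters in which neighbouring genes are less than 500000 bases apart. Clusters could be narrow, as for Ifit1, Ifit2, Ifit3 and Ifit3b, or wide, as for Oas2, Oas3 and Oas1a on chromosome 5, which ranged from -1.86 to -0.88 within 177 kb. Oasl2 and Oasl1, within 41.0 kb of chromosome 5, were at -0.37 and -1.21. The ratio pairs of counts given for neighbours and families, which also included Ifi44 to Ifit3 and Ifit3 to Ifit3b, were chosen after the values were seen. Of the 7 pairs computed 6 did not overlap between groups, and with 3 against 3 none could reach a P under 0.05.

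Of 63 other genes of the interferon pathway 47 were in the count table and 42 were tested. With TMM scaling 32 of the 42 were lower at an adjusted P under 0.05 and 0 were higher, whereas with library totals 0 passed the test. Of the 42 genes 11 were called lower, and their median log2 fold change was -0.42. Among all genes tested with TMM scaling 13.6% were lower at an adjusted P under 0.05 and 5.50% were called lower, with a median of 0.00. The same shares of all genes stand beside the counts of each pathway and marker list below. The interferons themselves were scarcely counted. Ifng, the gene of interferon gamma, a product of T and NK cells, had 47, 16 and 7 counts with GFP and 18, 22 and 29 counts with Ezh2-Y726D. Relative to the depth of the libraries these were lower in each Ezh2-Y726D library, at 1.65, 2.06 and 1.16 CPM with GFP and 0.677, 1.08 and 0.983 CPM with Ezh2-Y726D (log2 fold change -0.87, adjusted P = 0.0206). The test of Ifng was not passed without GFP replicate 1 (adjusted P = 0.13), GFP replicate 2 (adjusted P = 0.0803) or Ezh2-Y726D replicate 1 (adjusted P = 0.102), nor with DESeq2 (adjusted P = 0.163). Ifna4 had 2 counts and Ifnb1 and Ifnz had 1 each, all in Ezh2-Y726D replicate 3, and Ifnk had 1 in GFP replicate 3, so that no difference could be measured for type I interferons at this depth. The other 16 interferon genes of the list were not found by symbol in the count table. What is said of type I interferons thus rests on Ifna4, Ifnb1, Ifnz and Ifnk.

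Of the 10 receptor and kinase genes 8 were lower with TMM scaling at an adjusted P under 0.05, and 0 were called at 1.5-fold, while with library totals 8 of the 10 had positive values. Ifngr1, a chain of the interferon gamma receptor, was at 66.02, 70.04 and 68.7 CPM with GFP and 44.2, 45.3 and 47.7 CPM with Ezh2-Y726D (log2 fold change -0.57, adjusted P = 1.81e-09). Its values were separate between groups. Without GFP replicate 1 Ifngr2 (adjusted P = 0.125) and Tyk2 (adjusted P = 0.122) were no longer lower. With DESeq2 7 of the 10 were lower, without Ifngr2 (adjusted P = 0.0775). Jak1 (log2 fold change -0.02, adjusted P = 0.765) and Ifnlr1 (log2 fold change -0.57, adjusted P = 0.192) did not pass the test, although Ifnlr1 did without GFP replicate 1 (log2 fold change -1.04, adjusted P = 0.044).

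Of the 10 adaptors, sensors and kinases that induce interferon 8 were lower, 4 of them past 1.5-fold, while with library totals 5 of the 10 had positive values. Tlr9, the endosomal receptor of CpG DNA, was at 11.4, 13.03 and 14.4 CPM with GFP and 5.15, 4.95 and 5.93 CPM with Ezh2-Y726D (log2 fold change -1.20, adjusted P = 3.33e-09). Ikbke, a kinase that activates IRF3 and IRF7, was at 14.8, 13.4 and 17.4 CPM with GFP and 6.65, 6.62 and 6.88 CPM with Ezh2-Y726D (log2 fold change -1.16, adjusted P = 6.01e-10). Both groups of libraries were separate for these genes. With any 1 library left out 7 of the 10 were lower, and 6 with DESeq2. Tlr3 did not pass in 5 of those 6 fits, and Cgas, one of the genes past 1.5-fold, did not pass without GFP replicate 1 (adjusted P = 0.135) or with DESeq2 (adjusted P = 0.0591). Tbk1 (log2 fold change -0.07, adjusted P = 0.442), the close relative of Ikbke, and Ticam1 (log2 fold change -0.04, adjusted P = 0.878) did not pass the test. Of the 5 other interferon regulatory factors tested 3 were lower and called, of which Irf4 lost its call without Ezh2-Y726D replicate 1 (log2 fold change -0.55). Irf8, a factor of myeloid cells, was at 67.6, 67.6 and 68.3 CPM with GFP and 41.5, 40.97 and 44.6 CPM with Ezh2-Y726D (log2 fold change -0.68, adjusted P = 6.58e-11). Irf5, also known in myeloid and B cells, was at 21.1, 20.8 and 17.2 CPM with GFP and 13.8, 12.6 and 12.1 CPM with Ezh2-Y726D (log2 fold change -0.66, adjusted P = 6.11e-07). Neither overlapped between groups. Irf2 (log2 fold change -0.17, adjusted P = 0.141) and Irf3 (log2 fold change -0.08, adjusted P = 0.418) did not pass.

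Of 6 negative regulators of the response 2 were lower and 4 did not pass the test. Ptpn6, the phosphatase SHP-1 of blood cells, was at 48.5, 49.3 and 49.4 CPM with GFP and 22.9, 27.5 and 28.7 CPM with Ezh2-Y726D (log2 fold change -0.89, adjusted P = 5.904e-11). Socs1, an inhibitor of JAK kinases, was at 8.49, 7.48 and 4.81 CPM with GFP and 5.68, 5.097 and 4.81 CPM with Ezh2-Y726D (log2 fold change -0.55, adjusted P = 0.00394). Without GFP replicate 1 Socs1 did not pass (log2 fold change -0.28, adjusted P = 0.355), nor did it with DESeq2 (log2 fold change -0.47, adjusted P = 0.0993). Only Ptpn6 was separate between groups. Socs3 had a log2 fold change of 0.10 (adjusted P = 0.172), and Adar, the RNA editing enzyme that keeps self RNA from being sensed, one of 0.00 (adjusted P = 0.962). The 10 genes of MHC class I presentation, a common target of interferon gamma, all fell with TMM scaling, while 6 of the 10 had positive values with library totals, and 2 were called lower. Their median log2 fold change was -0.46. Psmb8, a subunit of the immunoproteasome, was at 66.5, 66.9 and 68.5 CPM with GFP and 41.9, 42.4 and 42.4 CPM with Ezh2-Y726D (log2 fold change -0.67, adjusted P = 4.07e-11). Nlrc5, the transactivator of MHC class I genes, was at 104, 99.6 and 94.4 CPM with GFP and 67.4, 64.1 and 66.3 CPM with Ezh2-Y726D (log2 fold change -0.61, adjusted P = 6.26e-11). The groups were separate for both. Without GFP replicate 1 Nlrc5 fell below the 1.5-fold line, at -0.56, as did Irf5, at -0.58.

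Markers of several cell types moved with the interferon-stimulated genes. The 7 T cell markers all fell with TMM scaling, had negative values but did not pass the test with library totals, and summed to 116 to 120.2 CPM with GFP and 67.7 to 74.3 CPM with Ezh2-Y726D. T cells also carry CD90.2. Of 5 tested markers of other macrophages and monocytes 4 were lower, with sums of 103 to 112 CPM with GFP and 49.6 to 60.1 CPM with Ezh2-Y726D, among them Ly6c2 at a log2 fold change of -1.58 and Mrc1 at -1.57. Of the 4 NK cell markers 3 were lower, summing to 22.1 to 28.03 CPM with GFP and 13.1 to 15.5 CPM with Ezh2-Y726D. Homeostatic microglia markers were mixed, with 4 lower and 2 higher of 8 with TMM scaling and 7 of 8 positive with library totals, and had sums of 401 to 451 CPM with GFP and 317 to 371 CPM with Ezh2-Y726D. Fcrls had the lowest value of the list (log2 fold change -1.49, adjusted P = 0.001697), which did not pass without GFP replicate 1 (adjusted P = 0.151) or with DESeq2 (adjusted P = 0.0597). P2ry12 (log2 fold change 0.33, adjusted P = 0.0243) and Sall1 (log2 fold change 0.61, adjusted P = 0.00137), which define microglia, were higher, while Cx3cr1 (log2 fold change -0.40, adjusted P = 1.83e-05) and Csf1r (log2 fold change -0.39, adjusted P = 8.25e-07) were lower. Without GFP replicate 1 neither P2ry12 (adjusted P = 0.221) nor Sall1 (adjusted P = 0.143) passed the test, and P2ry12 did not pass without Ezh2-Y726D replicate 2 (adjusted P = 0.11), without Ezh2-Y726D replicate 3 (adjusted P = 0.134) or with DESeq2 (adjusted P = 0.144). Of the B cell markers 2 of 5 were lower, of which Ms4a1 did not pass without any 1 of the 6 libraries and Cd79b without 3 of them, and of the plasmacytoid dendritic cell markers 1 of 3. The 4 neutrophil markers were at or near 0 and were not tested. With library totals 0 markers of macrophages and monocytes, NK cells, microglia, B cells and plasmacytoid dendritic cells were lower at an adjusted P under 0.05.

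Among retinal and vascular cells the markers went in different directions. All 6 bipolar, all 4 cone and all 4 pericyte markers were lower with TMM scaling, 2 of 5 endothelial markers were lower, all 6 amacrine markers were higher, and 2 of 5 rod markers were higher, while with library totals 3 bipolar, 1 cone, 2 pericyte and all 5 endothelial markers had positive values. The endothelial count rested on Pecam1 and Kdr, of which Pecam1 did not pass in 4 of 6 fits with 1 library omitted, and neither passed without Ezh2-Y726D replicate 2 (adjusted P = 0.0586 and 0.0758). Of the 2 rod markers Gnat1 did not pass in 4 of these 6 fits, with adjusted P from 0.0981 to 0.195. The amacrine markers summed to 927 to 995 CPM with GFP and 1445 to 1506 CPM with Ezh2-Y726D. Of the 10 RGC markers 1, Isl1, was lower and 2, Pou4f1 and Thy1, were higher, and neither of the latter passed without GFP replicate 1 (adjusted P = 0.058 and 0.0935). Thy1 also did not pass without GFP replicate 3 (adjusted P = 0.119) or Ezh2-Y726D replicate 2 (adjusted P = 0.213), and without Ezh2-Y726D replicate 1 the number of lower RGC markers was 2. Among pericyte markers Kcnj8 did not pass without GFP replicate 1 (adjusted P = 0.0526). Among the 6 Müller glia markers 2 were lower and 1 higher, and without GFP replicate 3 Slc1a3 was no longer lower (adjusted P = 0.0511). With library totals 1 of the 6 Müller glia markers and 1 of the 10 RGC markers had negative values, and 0 were lower at an adjusted P under 0.05. Which of these cells carried the interferon-stimulated transcripts, and the part of cell composition in their difference, was not tested.

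**Figure D5:**
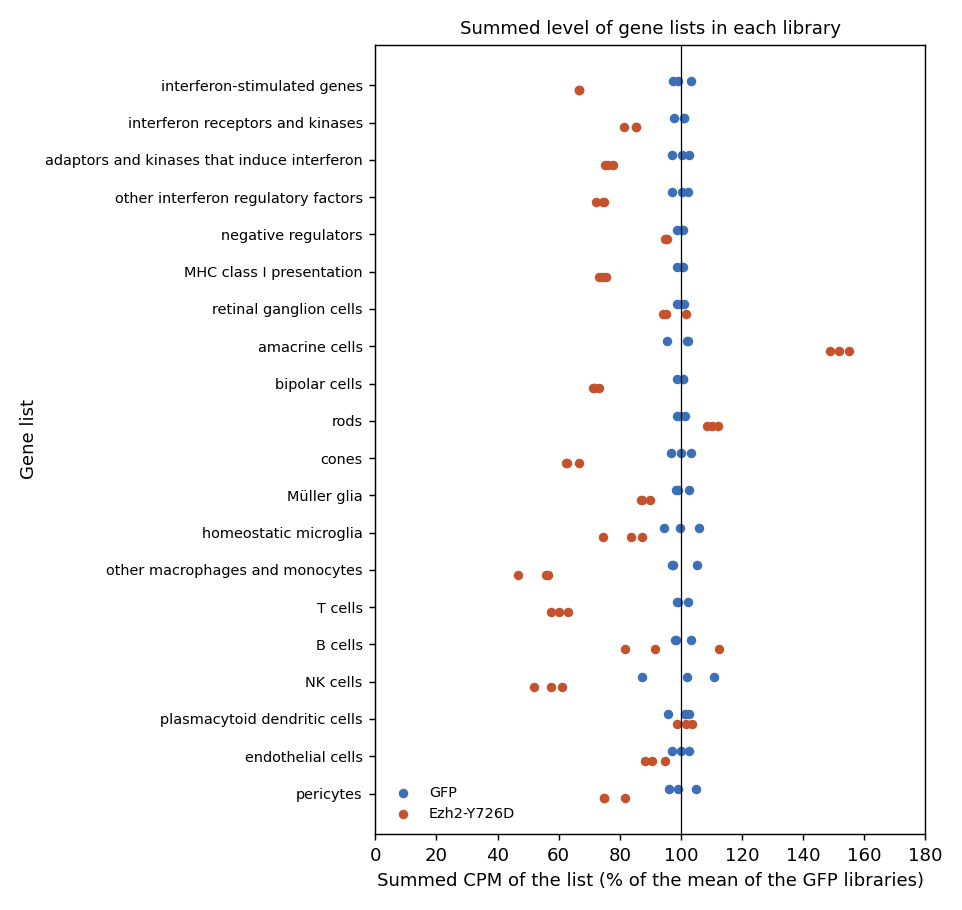
Summed TMM-scaled CPM of each of 20 gene lists in each library, as a percentage of the list's mean over the 3 GFP libraries, with 1 point per library. The interferon-stimulated genes of the Ezh2-Y726D libraries lie below 100%, as do T cells, NK cells and other macrophages and monocytes at lower percentages. Several other lists lie below 100% too, among them cones, bipolar cells, pericytes and MHC class I presentation. RGC markers lie near 100% and amacrine markers above it.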

How the data were processed

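RNA-Seq libraries were made from sorted cells with the TruSeq Stranded Total RNA kit. The authors deposited 1 table of raw counts per gene for the 6 libraries, in counts that are not normalized, and the submitters' processing notes name STAR 2.7.0d and GRCm38. The counting tool, annotation and use of strand are not given in the sources used here. Libraries were grouped by their labels, and libraries of a group differed by more than sampling noise (chi-square per degree of freedom of 1.46 to 3.23). Gene symbols were taken from GENCODE vM21 and RefSeq tables for 32325 of 32371 identifiers. Counts were filtered with filterByExpr (minimum count 10, minimum total 15), scaled with TMM and tested with edgeR 4.0.16 (quasi-likelihood test, R 4.3.3) over 18138 genes, with Benjamini-Hochberg adjustment. A call needed a fold change over 1.5 and an adjusted P under 0.05. Standard errors were derived from the log2 fold change and the F statistic. CPM is the count relative to the TMM-scaled library size. The depth per library (9333244 to 23782520 counts) limits the precision of low genes, and the lowest count of any of the 49 genes was 30.

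The 49 genes, their role groups, the pathway genes and the cell type markers were chosen with earlier results of these data known. Values per library are given for each gene called and for the 2 most abundant genes of each role group, and for the others by mean and SD. Of the pathway lists the genes past the test with the 2 largest differences per list are named, with the interferon genes with any count. A gene that this rule names is not reported here. Genes named because they did not pass, and the marker genes named, were chosen after their values were seen. The share of 50-base words that a gene's GENCODE transcripts have in common with other genes, and the exonic overlap, mark uncertain counts. The test was also run on simulated counts, and the outcome is not given here. Alternatives were other scalings (RLE size factors, library totals with and without CT010467.1), DESeq2 1.42.0, other filters, a fold change over 2, a replicate block, each library left out in turn, and GFP replicate 1 alone. No table of proteins was used.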

Additional observations from a re-analysis of the deposited data

How the results depend on the processing

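Scaling by library totals with no composition factor, in which CT010467.1 enters the depth of each library, moved the median of all genes to 0.49 and the median of the 49 genes to -0.0765. The number of the 49 genes called lower, the number lower at an adjusted P under 0.05 and the number of pathway genes lower were then each 0. Under it 18 log2 fold changes became positive: Irf1 0.10, Irf9 0.14, Stat2 0.0421, Ifih1 0.065, Eif2ak2 0.0365, Ifit3b 0.0906, Oasl2 0.14, Herc6 0.13, Cmpk2 0.30, Parp12 0.18, Gbp2 0.21, Gbp3 0.22, Gbp7 0.26, Igtp 0.0264, Irgm1 0.0868, Xaf1 0.12, Ifi27 0.21 and Samd9l 0.12. With CT010467.1 left out of the totals the median of all genes was -0.02, and 49 genes were lower with 25 called. A fold change over 2 left 10 of the 24 calls.

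The other settings gave 22 to 25 genes called lower and 47 to 49 lower at the adjusted threshold, with 0 higher. DESeq2 gave 47 lower, without Cmpk2 (adjusted P = 0.107) and Ifi27 (adjusted P = 0.0565), and 24 called, 23 of them shared with edgeR, with Ifi35 (log2 fold change -0.58) losing its call and Ifit2 gaining one. Leaving out each library in turn gave 22 to 25 called, 47 to 49 lower and 28 to 31 pathway genes lower, and log2 fold changes of single genes from -1.95 to -0.14. GFP replicate 1 alone against the Ezh2-Y726D libraries, where the lone library is assumed to vary like the others, gave 49 lower and 23 called. Replicate numbers were shared by the groups, but same-numbered libraries deviated together only weakly (r = 0.106, 0.0416 and 0.0306), each library correlating best with its own number, so they were not taken as pairs. The replicate block gave 24 genes called lower and 49 lower.

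GFP replicates 2 and 3 hold fewer counts outside CT010467.1 than the other libraries, which limits genes of low level such as Oas2, Oasl1 and Ifng.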
